A study of Homo sapiens with 20 samples.

Results

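Exons that sit between 2 short introns were examined in HepG2 cells, a human liver cancer line, after depletion of the splicing factor FUBP1, the small nucleolar RNA (snoRNA) U3 or the RNA methyltransferase FBL. A member was a cassette exon event (1 exon with its 2 flanking exons, the exon being either included or skipped) with an exon of 31 to 299 bases, both flanking introns under 500 bases, and an average of 10 or more junction reads in each library of its table. The rule used no difference between groups. It kept 1010 of 19792 events in the siFUBP1 table, 2014 of 32990 in the U3 antisense oligonucleotide (U3_ASO) table and 451 of 7065 in the siFBL table, or 3475 of 59847 events in all. These events covered 2211 distinct exons of 1378 genes. A further 175, 114 and 97 events of the same geometry fell under the read minimum and were not analysed. Of the genes, 907 held 1 such exon, 261 held 2 and 210 held 3 or more, with the most in PCNX3 (9 exons) and in CHRD (8 exons).

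The siFUBP1 comparison set 3 libraries of cells transfected with siFUBP1 against 3 libraries with a control siRNA (siCtrl2), harvested 48 hours after transfection. The U3_ASO comparison set 3 libraries with an oligonucleotide against U3 against 3 libraries with one against green fluorescent protein (GFP_ASO), harvested at 72 hours. The siFBL comparison set 2 input libraries of an RNA immunoprecipitation from cells given siFBL (siFBL_input) against 2 from cells given a different control siRNA (siCtrl_input), harvested at 48 hours, so its RNA came from cleared lysate. All libraries came from HepG2 cells with no allele engineered, and each siRNA or oligonucleotide was the only reagent against its target, so effects on other RNAs cannot be told apart from those on the target. The methods name 3 biological replicates for each arm of the knockdowns (KD) and 2 for the inputs.

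Most human introns are long, and the spliceosome then first recognises the exon, pairing the 3′ splice site at its start with the 5′ splice site at its end (exon definition). Where introns are very short, the pair across the intron can be recognised instead (intron definition). FUBP1 is a KH-domain protein that binds pyrimidine-rich RNA near 3′ splice sites and takes part in the assembly of early spliceosomes. FBL is the methyltransferase of the box C/D snoRNA particles, which place 2′-O-methyl groups (Nm) on RNA, and U3 is the abundant box C/D snoRNA required for processing of the 18S ribosomal RNA precursor. The study asked how loss of Nm or of its binding protein alters splicing, and the comparison here was whether exons in this compact setting moved with other exons.

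The members with the shortest introns show what compact means. Both sequences below run from the first base of the upstream intron to the last base of the downstream intron, 5′ to 3′ on the gene's strand in hg38, with the exon in capitals.
LMF2, exon 9 of 14, coding, chr22:50504985-50505228, minus strand: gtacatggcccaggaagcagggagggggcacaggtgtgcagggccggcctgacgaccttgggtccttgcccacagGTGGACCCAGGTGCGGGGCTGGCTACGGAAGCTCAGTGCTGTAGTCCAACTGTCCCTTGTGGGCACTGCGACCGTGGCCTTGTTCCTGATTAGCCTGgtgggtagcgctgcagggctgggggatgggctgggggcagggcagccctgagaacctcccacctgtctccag
MGAT4B, exon 13 of 15, coding, chr5:179798278-179798512, minus strand: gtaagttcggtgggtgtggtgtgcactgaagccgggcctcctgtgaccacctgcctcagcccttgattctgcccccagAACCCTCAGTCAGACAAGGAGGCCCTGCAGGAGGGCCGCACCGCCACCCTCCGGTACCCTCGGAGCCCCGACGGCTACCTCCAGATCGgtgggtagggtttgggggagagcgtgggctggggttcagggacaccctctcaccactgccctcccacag

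LMF2 encodes a protein related to lipase maturation factor 1, and MGAT4B encodes an N-acetylglucosaminyltransferase of the Golgi. The LMF2 exon has introns of 75 and 72 bases, and the MGAT4B exon has introns of 78 and 69 bases. Exon 8 of LMF2, directly upstream, was a member too, with introns of 68 and 75 bases. All were included in nearly every transcript. In the U3_ASO table, the LMF2 exon 9 level was 1.00, 1.00 and 0.995 in control libraries and 0.985, 1.00 and 1.00 after U3_ASO, and the MGAT4B level was 1.00, 1.00 and 0.98 in control libraries and 1.00 in each U3_ASO library. Neither passed the test, with adjusted p = 0.867 for both in the quasi-binomial fit across all events.

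The next set shows exons whose inclusion separated the groups. Each line gives 30 intron bases before the exon, the exon in capitals and 15 intron bases after it, again in hg38 on the gene's strand.
CPNE1, exon 5 of 16, chr20:35632148-35632264, minus strand: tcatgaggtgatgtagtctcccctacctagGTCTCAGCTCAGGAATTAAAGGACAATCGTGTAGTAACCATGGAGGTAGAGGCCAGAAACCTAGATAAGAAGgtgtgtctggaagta
CPNE1, exon 12 of 16, chr20:35630726-35630825, minus strand: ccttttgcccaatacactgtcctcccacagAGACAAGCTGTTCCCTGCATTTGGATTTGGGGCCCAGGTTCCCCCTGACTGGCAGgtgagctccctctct
IL32, exon 4 of 7, chr16:3067524-3067628, plus strand: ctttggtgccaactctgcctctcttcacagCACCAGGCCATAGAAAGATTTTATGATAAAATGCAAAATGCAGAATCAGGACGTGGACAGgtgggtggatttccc
BPIFB2, exon 10 of 16, chr20:33019032-33019130, plus strand: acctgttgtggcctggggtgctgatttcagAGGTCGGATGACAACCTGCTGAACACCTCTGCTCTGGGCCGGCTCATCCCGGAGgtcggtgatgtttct
CARM1, exon 15 of 16, chr19:10921345-10921458, plus strand: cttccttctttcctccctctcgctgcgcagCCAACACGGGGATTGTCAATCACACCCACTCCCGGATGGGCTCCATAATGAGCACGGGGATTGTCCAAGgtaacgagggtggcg
SHMT2, exon 3 of 12, chr12:57231451-57231575, plus strand: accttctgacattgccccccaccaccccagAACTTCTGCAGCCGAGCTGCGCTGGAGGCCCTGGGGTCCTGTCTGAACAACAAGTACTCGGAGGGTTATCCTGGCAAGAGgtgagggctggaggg
SDR39U1, exon 3 of 6, chr14:24442163-24442290, minus strand: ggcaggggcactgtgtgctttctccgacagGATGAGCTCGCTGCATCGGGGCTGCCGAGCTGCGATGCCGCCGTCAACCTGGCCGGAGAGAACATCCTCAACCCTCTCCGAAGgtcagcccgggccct

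These 7 exons are coding in GENCODE. As a group the members were rich in G and C and poor in the T (U in RNA) runs that precede most exons. The median GC content of the 2211 member exons was 58.9%, against 47.6% in 25585 other exons of the same length range with at least 1 flanking intron of 500 bases or more. In the 100 intron bases upstream of the exon, the median GC content was 60.0% against 38.0%, and the median T content was 22% against 35%. The share of pyrimidines in the last 20 of those bases did not separate the classes, with a median of 70.0% in both. The 3′ splice site was given a log2 odds score from base frequencies over 23 positions. The frequencies came from the distinct exons of these same tables, mostly not members, so the score is no independent scale of strength. Its median was 6.97 in members and 9.38 in other exons. The 5′ splice site score, built likewise, had a median of 7.41 against 7.99. BPIFB2 exon 10 stood low on this scale, with a 3′ splice site score of 2.19, and IL32 exon 4 stood at 9.13.

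The median member exon was 109 bases long, its upstream intron 206 bases and its downstream intron 205 bases. Members were wholly coding in 88.9% of exons against 81.5% of other exons, and their length was a multiple of 3 in 40.0% against 41.6%. GENCODE lists the junction that skips the exon for 39.5% of members and 40.4% of other exons. Chromosome 19 carried 9.72% of the member exons against 4.69% of the others, and chromosomes 16 and 17 together carried 20.1% against 10.1%. A snoRNA gene lay inside a flanking intron of 1.58% of the members and 0.782% of the others. These are descriptions of the exons, without a test, and 147 exons occur in both classes because they pair with different flanking exons.

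Members took 8.33 to 9.65% of the junction reads of a library. Total junction reads per library were 2693397 to 4474350 in the siFUBP1 table, 11249641 to 13321799 in the U3_ASO table and 910779 to 1142189 in the siFBL table, so the U3_ASO values carry the least counting error and the siFBL values the most. FUBP1 itself gave 45.2 to 56.1 junction reads per 1000000 in siCtrl2 libraries and 4.08 to 10.1 in siFUBP1 libraries. It gave 56.9 to 64.0 in GFP_ASO and 38.7 to 43.4 in U3_ASO libraries, and the part of this difference in the U3_ASO results was not tested. FBL had no event in the tables, so its depletion was not checked here. Junction reads of the liver genes AFP, ALB, APOB, APOH and TF were abundant in each table, SERPINA1, ASGR1 and TTR gave lower values, and FGB had no event. Of markers of blood, stromal and epithelial cells, PTPRC, CD3E, COL1A1 and KRT5 had no event, and PECAM1 reached at most 0.834 per 1000000 reads, in the U3_ASO table. A gene can be expressed and have no cassette exon event, so this does not show that other cells were absent.

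Upon FUBP1 KD, member exons were included more often, while other exons were included less often. The inclusion level of an event is its inclusion reads as a share of inclusion and skipping reads after each is divided by its effective length, and the mean was taken over the 985 member events with reads in every library. It was 0.860, 0.854 and 0.856 in siCtrl2 libraries and 0.887, 0.881 and 0.876 in siFUBP1 libraries. The groups did not overlap. The mean was higher by 0.0250, going from 0.857 ± 0.00295 to 0.882 ± 0.00542 (SD, n = 3), with p = 0.1 in a two-sided exact permutation test over libraries, the smallest p that 3 against 3 libraries can give. With 18 such comparisons in the table, the adjusted p was 0.113. Over the 14067 other exons with reads in every library, the mean went from 0.829 ± 0.000806 to 0.823 ± 0.00143 (SD, n = 3), a difference of -0.00667, also without overlap.

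The gap between members and other exons was thus wider in the siFUBP1 libraries. Within each library, members were above other exons by 0.0272 ± 0.00223 in siCtrl2 and by 0.0588 ± 0.00497 in siFUBP1 (SD, n = 3), a difference of 0.0316 without overlap (exact permutation p = 0.1, adjusted p = 0.113). Exons with a single short flanking intron lay between the extremes. Their mean changed by 0.00829 where the short intron was upstream and by 0.0106 where it was downstream, and exons between 2 long introns changed by -0.0108. The change of members exceeded that of the upstream-short class by 0.0167 and that of the downstream-short class by 0.0143, each without overlap of the libraries and with exact permutation p = 0.1.

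**Figure D1:**
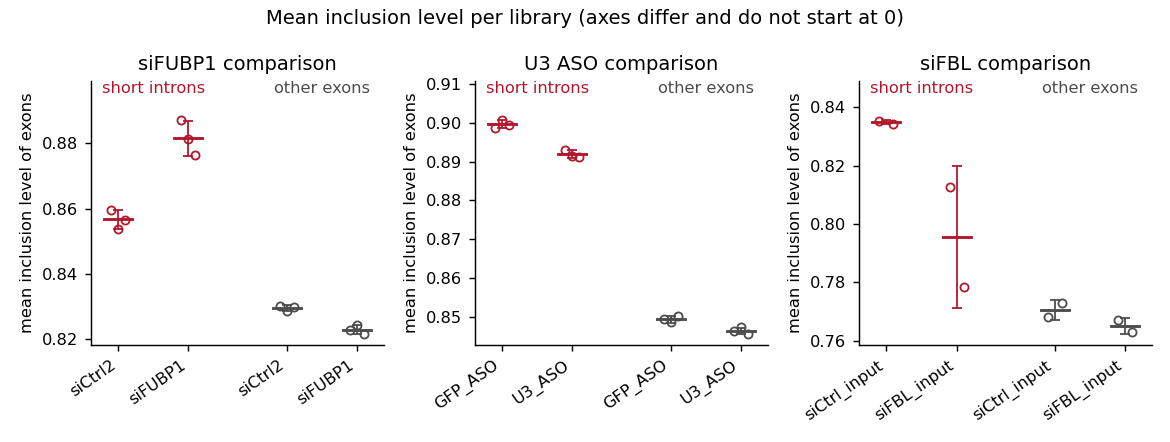
Mean inclusion level (vertical axis, a share from 0 to 1; axes differ between panels and do not start at 0) in each library, for exons between 2 short introns in red and for other exons in grey. Circles are libraries, horizontal bars are group means and error bars are SD (n = 3, or n = 2 in the siFBL panel); the red groups lie higher after siFUBP1 (0.882 against 0.857) and lower after U3_ASO (0.892 against 0.8996), and the 2 siFBL_input libraries differ from each other (0.813 and 0.778).

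Counted by reads rather than by exon, the same direction was seen. Skipping reads made up 4.44, 4.59 and 4.51% of the member junction reads in siCtrl2 libraries and 3.93, 3.86 and 3.95% in siFUBP1 libraries. The difference was -0.601 percentage points without overlap (exact permutation p = 0.1), while in other exons it was 0.170 points, from 6.70 to 6.87%. A few highly expressed events carried much of the member share, and without the 20 events with the most reads the difference was -1.50 points.

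Across all tested exons the change after FUBP1 KD followed the length of the longer flanking intron. The mean changed by 0.0190 with the longer intron under 200 bases, 0.0269 at 200 to 500 bases and 0.0143 at 500 to 1000 bases. It then changed by 0.00225 at 1000 to 2000 bases, -0.00584 at 2000 to 5000 bases, -0.00975 at 5000 to 10000 bases and -0.0157 above that. The libraries of the groups overlapped under 200 bases and at 1000 to 2000 bases, and were apart in the other 5 bins. Just inside the limit, events with a longer intron of 400 to 500 bases changed by 0.0252 (233 events), and just outside it, those of 500 to 600 bases changed by 0.0120 (257 events).

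**Figure D2:**
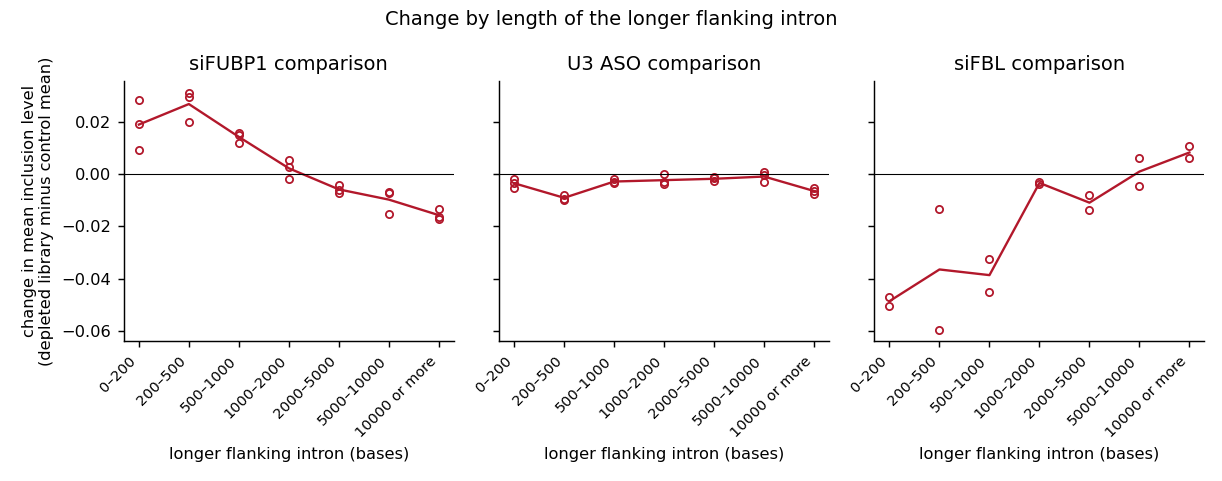
Change in mean inclusion level (vertical axis, each depleted library minus the mean of its controls; circles are libraries and the line joins group means) by length of the longer flanking intron in bases (horizontal axis), for all tested exons of 31 to 299 bases. The first 2 bins hold the members; in the siFUBP1 panel the line falls from 0.0269 at 200 to 500 bases to -0.0157 at 10000 bases or more, and in the siFBL panel it rises from -0.0487 to 0.00831.

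Exon GC content moved with the same difference. Among other exons, the change after FUBP1 KD went from -0.0183 below 50% GC to 0.00291, 0.0127, 0.0140 and finally 0.0230 at 65% or more. Members changed by 0.0105 below 50% GC and by 0.0263 to 0.0288 in the 4 bins above. The change of members was above that of other exons in each of the 5 bins, with the narrowest gap at 65% GC or more. Compared within bins of GC content, the difference between the classes was 0.0164 in place of 0.0316, and the groups still did not overlap. Intron length and GC content vary together in these exons, and their parts in the difference cannot be told apart.

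**Figure D3:**
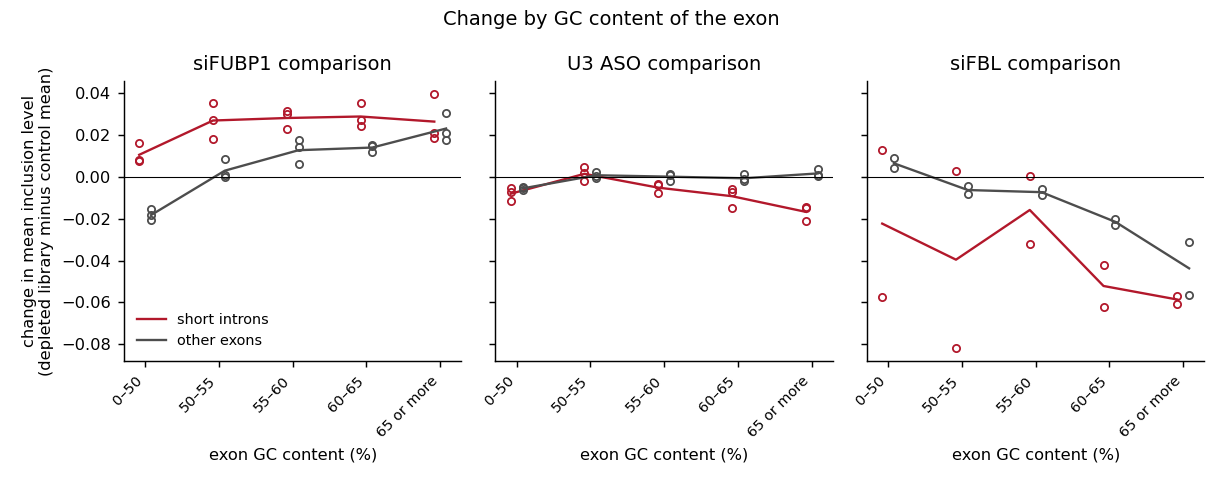
Change in mean inclusion level (vertical axis, each depleted library minus the mean of its controls) by GC content of the exon in percent (horizontal axis), with members in red and other exons in grey; circles are libraries and lines join group means. After siFUBP1 the grey line climbs from -0.0183 to 0.0230 and the red line stays between 0.0105 and 0.0288; after U3_ASO the red line ends at -0.0167 and the grey line at 0.0016.

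Within the members, the change after FUBP1 KD was spread over most kinds of exon. It was 0.0206 in coding members and 0.0564 in members that were not wholly coding, and 0.0236 where the exon length was a multiple of 3 against 0.0260 where it was not. Where GENCODE lists the skipping junction the change was 0.0310, and where it does not it was 0.0192. Inclusion was already near complete for many members, which leaves little room to rise. The 485 events with a mean level of 0.98 or more changed by 0.00352, the 273 at 0.9 to 0.98 by 0.0217, the 125 at 0.5 to 0.9 by 0.0807 and the 102 below 0.5 by 0.0672. The size also went down with read count. Members with a mean of 10 to 20 reads changed by 0.0788, those with 20 to 50 reads by 0.0311, those with 50 to 100 reads by 0.0173 and those with 100 or more by 0.00809, each bin without overlap of the groups. Other exons in the same 4 bins changed by -0.00645, -0.0103, -0.00727 and -0.00337.

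Event by event, 647 of the 1010 members were higher and 363 lower after FUBP1 KD, with a median change of 0.00809. Over all 16213 tested events, 7791 were higher and 8419 lower, with a median of -0.00139. A change of at least 0.1 was seen upwards in 139 members and downwards in 57. In 33 members (3.27%) every siFUBP1 library was above every siCtrl2 library, where 1.96% of all tested events were, and in 9 members (0.891%) every siFUBP1 library was below, where 3.1% of all tested events were. At an unadjusted p under 0.05 in the quasi-binomial fit there were 21 members higher and 3 lower, or 24 of 1010. Over all tested events there were 577 of 16213, with 210 higher and 367 lower, so members passed no more often. Exons between 2 long introns gave 124 higher and 294 lower.

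**Figure D4:**
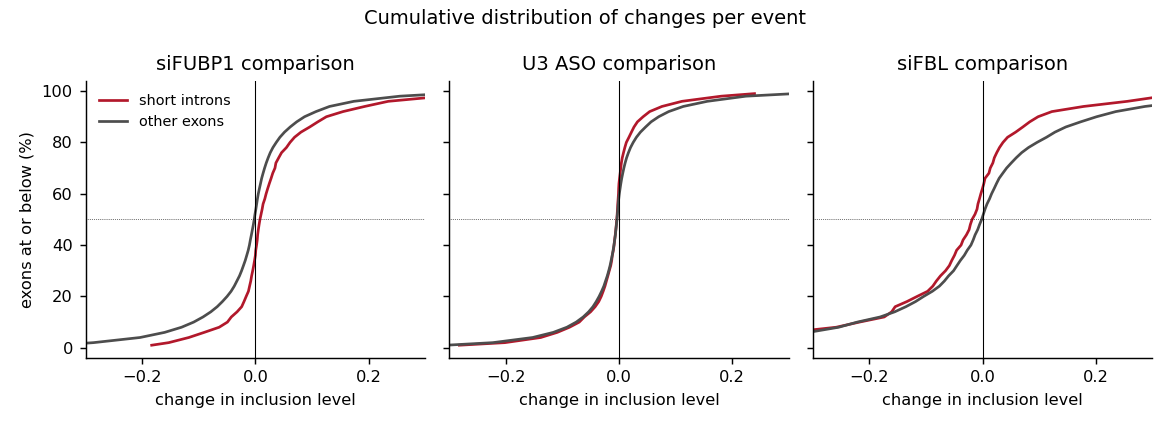
Cumulative share of exons in percent (vertical axis) at or below a given change in inclusion level, depleted minus control (horizontal axis), for members in red and other exons in grey, without error bars since each curve is over exons. After siFUBP1 the red curve lies to the right of the grey curve (median 0.00809 against -0.00206), after siFBL it lies to the left in the middle and upper part (median -0.0185 against -0.00158), and after U3_ASO the medians nearly coincide (-0.00389 against -0.00355).

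Single exons rarely passed the test. Of the members, 1 was called at an adjusted p under 0.1, where 0.154% of all tested events were. It was an exon of 43 bases in MAGED4B, which GENCODE does not list (chrX:52189552-52189594, hg38). Its level was 1.00 and 0.131 in the 2 siCtrl2 libraries with reads and 1.00 in each siFUBP1 library (adjusted p = 0.00302, quasi-binomial fit). The groups overlapped, the low level came from a single control library, the call was lost without that library or without the siFUBP1 library 3, and MAGED4B has a near-identical copy, MAGED4, so the reads cannot be placed with certainty.

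Below the threshold, the smallest p among members whose libraries did not overlap belonged to exon 5 of CPNE1, which encodes copine 1, a calcium-dependent phospholipid-binding protein. Its level was 0.941, 0.874 and 0.860 in siCtrl2 and 0.986, 1.00 and 0.970 in siFUBP1 libraries. Each siFUBP1 library lay above each control, a difference of 0.0933 (unadjusted p = 0.00133, adjusted p = 0.365, quasi-binomial fit). Exon 4 of IL32, which encodes a cytokine, had levels of 0.754, 0.756 and 0.811 in siCtrl2 and 0.857, 0.839 and 0.954 in siFUBP1 libraries (difference 0.110, adjusted p = 0.488, quasi-binomial fit). Again the highest control lay below the lowest siFUBP1 library, as the choice of these exons required.

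Exon 10 of BPIFB2, a member of the family of lipid-binding BPI fold proteins, had levels of 0.568, 0.519 and 0.533 in siCtrl2 and 0.780, 0.595 and 0.656 in siFUBP1 libraries. Exon 15 of CARM1, which encodes an arginine methyltransferase, had levels of 0.303, 0.304 and 0.193 in siCtrl2 and 0.397, 0.422 and 0.465 in siFUBP1 libraries. The differences were 0.137 and 0.162. The groups were apart in both, as the choice of these exons required, but neither passed the test (adjusted p = 0.837 for each, quasi-binomial fit). The CPNE1, IL32, BPIFB2 and CARM1 exons are 72, 60, 54 and 69 bases long, each a multiple of 3. Exon 3 of APOA2, an apolipoprotein of high-density lipoprotein, was measured with a mean of 18185 reads, and its level was 0.995, 0.995 and 0.996 in siCtrl2 and 0.998, 0.998 and 1.00 in siFUBP1 libraries (adjusted p = 0.794, quasi-binomial fit).

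Among the exons chosen for smallest p and lack of overlap after siFUBP1, the largest differences rested on few reads. Exon 3 of IP6K2, which encodes an inositol hexakisphosphate kinase, had levels of 0.223, 0 and 0 in siCtrl2 and 1.00, 0.615 and 0.432 in siFUBP1 libraries, at a mean of 15.2 reads. Exon 7 of the transcribed pseudogene AHSA2P had levels of 0, 0.00746 and 0.0150 in siCtrl2 and 0.229, 0.867 and 0.0215 in siFUBP1 libraries, so a single library made most of the difference. Neither passed the test (adjusted p = 0.837 for both, quasi-binomial fit).

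U3 depletion moved the members the other way, by a smaller step. The mean level over 1962 events was 0.899, 0.901 and 0.899 in GFP_ASO libraries and 0.893, 0.891 and 0.891 in U3_ASO libraries. The means were 0.8996 ± 0.00103 and 0.892 ± 0.00102 (SD, n = 3), a difference of -0.00772 without overlap (exact permutation p = 0.1, the smallest possible, adjusted p = 0.113 over 18 comparisons). Other exons also went lower, with a difference of -0.00300, and the difference between the classes was -0.00472, without overlap (exact permutation p = 0.1, adjusted p = 0.113). Exons with the short intron upstream changed by 0.00304, so members also differed from that class, by -0.0108 without overlap. Events just inside the limit, with a longer intron of 400 to 500 bases, changed by -0.00928. Those just outside, at 500 to 600 bases, changed by -0.00981, with overlap. Exons with a longer intron of 10000 bases or more changed by -0.00646. Those with a shorter intron of 5000 bases or more changed by -0.00891, both without overlap. The drop was therefore not particular to members.

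Read shares showed a different order. Skipping reads went from 3.26 ± 0.0667% to 3.68 ± 0.0438% of member junction reads (SD, n = 3), up by 0.412 points, and in other exons from 5.07 to 5.69%, up by 0.624 points. Both were higher without overlap, but by this measure members changed less than other exons, by 0.212 points (exact permutation p = 0.1). Exons with only the downstream intron short changed by 0.406 points, and members differed from them by 0.00551 points with overlap (exact permutation p = 0.8), so the smaller change was not particular to members. Without the 20 members with the most reads the member difference was 0.260 points.

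Among the members, 723 were higher and 1291 lower after U3_ASO, with a median change of -0.00389, where the median over all 30109 tested events was -0.00355. In 88 members (4.37%) every U3_ASO library was below every control, where 3.72% of all tested events were. In 31 members (1.54%) every U3_ASO library was above, where 2.31% of all tested events were. By level, members at 0.9 to 0.98 changed by -0.0163 and those at 0.98 or more by -0.00412, each without overlap. In the first of these bins 35 of 464 member events lay lower without overlap and 8 higher, and in the second 39 of 1147 lay lower and 1 higher. Among other exons, 424 of 6794 lay lower without overlap and 115 higher in the first bin. In the second bin, 276 of 12749 lay lower and 44 higher. Other exons changed by -0.0111 and -0.00415 in the same 2 bins, also without overlap, so lower levels of mostly included exons were shared by both classes. Members below 0.5 changed by -0.00480 with overlapping libraries, and other exons below 0.5 changed by 0.0145 without overlap. Coding members changed by -0.00879 without overlap, and members not wholly coding changed by -0.0000642 with overlap.

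The U3_ASO test called 6 members, where 0.189% of all tested events were called. Of these, 3 are versions of the same exon of SNHG29, a long noncoding RNA that hosts box C/D snoRNAs in its introns. The versions share a 5′ splice site and begin at 3 different 3′ splice sites. The run below covers 20 intron bases, the longest form of the exon and 10 intron bases (chr17:16439508-16439713, hg38, plus strand), and the capitals mark the AG that ends the intron at each of the 3 starts and the GT that opens the next intron.
SNHG29: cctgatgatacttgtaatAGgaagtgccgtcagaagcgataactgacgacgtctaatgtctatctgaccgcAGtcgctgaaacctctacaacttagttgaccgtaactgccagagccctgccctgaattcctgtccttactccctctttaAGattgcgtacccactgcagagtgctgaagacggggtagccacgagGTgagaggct

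The box C/D snoRNA gene SNORD49B lies at chr17:16439505-16439576 and SNORD49A at chr17:16440036-16440106. The longest version therefore begins inside SNORD49B, whereas the 123-base and 44-base versions leave SNORD49B within the upstream intron, and all have SNORD49A in the downstream intron. The level of the longest version was 0.504, 0.504 and 0.478 in GFP_ASO and 0.761, 0.724 and 0.681 in U3_ASO libraries. The 123-base version had 0.392, 0.432 and 0.386 in GFP_ASO and 0.743, 0.705 and 0.674 in U3_ASO libraries, and the 44-base version had 0.384, 0.397 and 0.347 in GFP_ASO and 0.654, 0.608 and 0.572 in U3_ASO libraries. In these 3 events inclusion was higher in every U3_ASO library. The differences were 0.227, 0.304 and 0.235, with adjusted p = 1.07e-09, 2.43e-16 and 2.18e-06 in the quasi-binomial fit. The 3 tests share the skipping reads and the downstream junction, so they count as a single observation of the exon. A further SNHG29 member, the 44-base version paired with a nearer downstream exon (intron of 407 bases), had a mean of 35.7 reads and went the other way, from 1.00 in GFP_ASO to 0.850 in U3_ASO libraries with overlap, and was not called (adjusted p = 0.867, quasi-binomial fit). None of the 3 passed the test after siFUBP1 (differences of 0.0552, 0.0548 and 0.0694) or siFBL (differences of -0.0496, -0.0648 and -0.0273).

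Other members with a snoRNA in a flanking intron were divided. Beside SNHG29, 31 member events of 18 genes held a snoRNA in a flanking intron in the U3_ASO table, among them the host genes RPL13A, RPL3, RPS2, EEF1B2 and EIF4A1. Of these events, 11 were higher and 20 lower, with a median change of -0.000349, where 59.2% of all tested events were lower. SNHG8 was higher without overlap (1 of 31 events, where 2.31% of all tested events were). EIF4A1 was lower without overlap (1 of 31, where 3.72% were), and no event was called. Without SNHG29, 11 of 22 such events were higher and 11 lower after siFUBP1, where 51.9% of all tested events were lower. After siFBL 4 of 14 were higher and 10 lower, where 52.1% of all tested events were lower.

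The other called members were single events in 3 genes. A 70-base exon of HDGF, which encodes a heparin-binding growth factor, is skipped in most transcripts, and its 3′ splice site (20 intron bases, then the first exon bases in capitals, chr1:156744561-156744590, minus strand) reads as follows.
HDGF: ggttttgcctcctgctccagCCCTCCCCCC

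Its level was 0.00323, 0.00528 and 0.0106 in GFP_ASO and 0.0135, 0.0340 and 0.0403 in U3_ASO libraries, higher by 0.0229 without overlap (adjusted p = 0.00507, quasi-binomial fit). Exon 12 of CPNE1, shown above, had levels of 1.00, 0.998 and 0.987 in GFP_ASO and 0.969, 0.939 and 0.966 in U3_ASO libraries, lower by 0.0369 without overlap (adjusted p = 0.0266, quasi-binomial fit). In the siFUBP1 table the same exon was at 0.996, 1.00 and 0.993 in controls and at 1.00 in each siFUBP1 library. The last called member was assigned to the read-through of the duplicated genes PKD1P4-NPIPA8, but GENCODE does not list this exon. Its splice site scores were low, at -5.89 (3′) and -13.0 (5′). Its level was 1.00 in 5 libraries and 0.104 in a single U3_ASO library (adjusted p = 0.0982, quasi-binomial fit). The lowest read count in a library was 1, so a level of 1.00 can rest on a single read. The calls in HDGF, CPNE1 and PKD1P4-NPIPA8 were lost where the dispersion of an event was not allowed below its own, and those of SNHG29 were not. The same 3 calls were lost without GFP_ASO library 2 or U3_ASO library 2. All 6 calls were lost in limma fits to the log2 odds, which called no event of the whole table.

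Below the threshold, exon 3 of SHMT2, the mitochondrial serine hydroxymethyltransferase, had levels of 0.986, 0.987 and 0.975 in GFP_ASO and 0.937, 0.886 and 0.913 in U3_ASO libraries. Exon 3 of SDR39U1, a short-chain dehydrogenase, had levels of 0.878, 0.928 and 0.993 in GFP_ASO and 0.637, 0.810 and 0.650 in U3_ASO libraries. Both exons, chosen for lack of overlap, were lower in every U3_ASO library, with differences of -0.0707 and -0.234 (adjusted p = 0.359 for both, quasi-binomial fit). With lengths of 80 and 83 bases, neither is a multiple of 3.

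**Figure D5:**
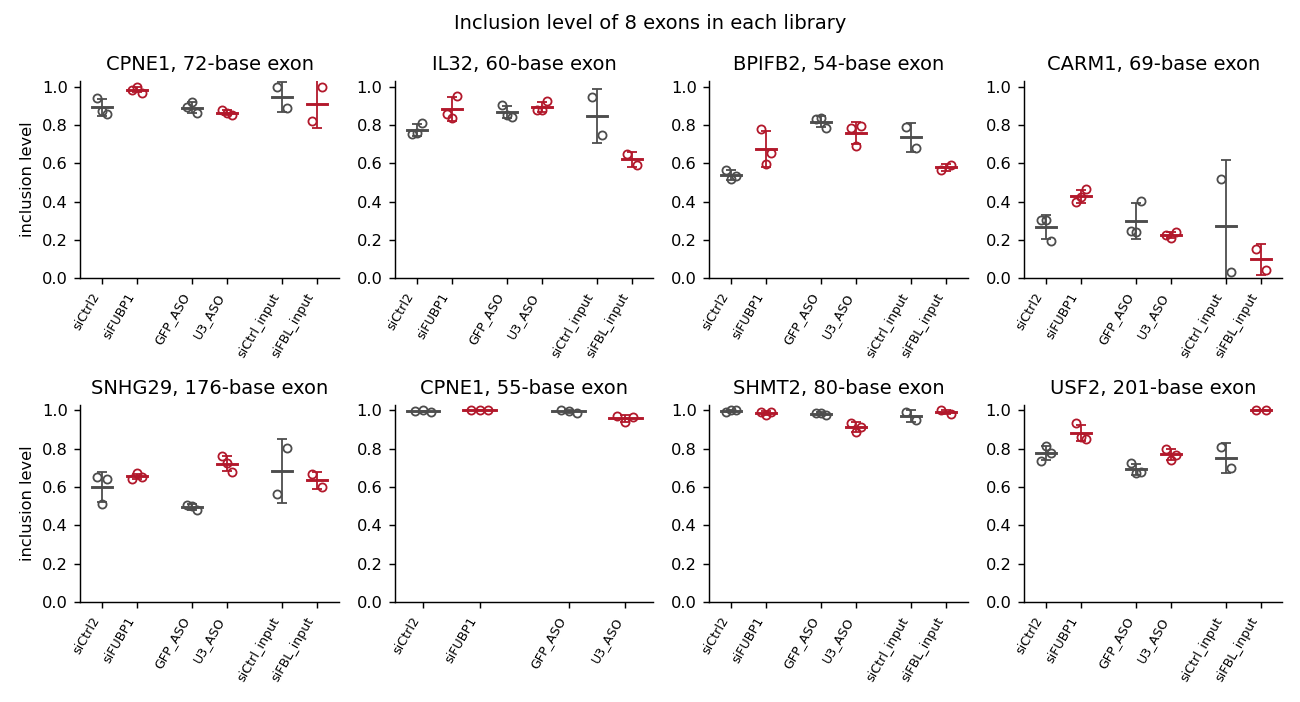
Inclusion level (vertical axis, 0 to 1) of 8 member exons in each library; grey circles are control libraries and red circles depleted ones, horizontal bars are group means and error bars SD (n = 3, or n = 2 for the siFBL inputs). The first 4 panels are the exons of CPNE1, IL32, BPIFB2 and CARM1 that lie higher after siFUBP1; SNHG29 lies higher after U3_ASO, the 55-base CPNE1 exon and SHMT2 lie lower, and USF2 lies higher in all 3 comparisons.

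FBL depletion gave the largest mean step over the members of its own table, with the widest spread. The tables hold different events, and over members measured in all 3 tables the steps after siFBL and siFUBP1 were nearly equal in size, at -0.0351 and 0.0345. The mean level over 440 events was 0.835 and 0.834 in siCtrl_input libraries and 0.813 and 0.778 in siFBL_input libraries. It was lower by 0.0394, from 0.835 ± 0.000746 to 0.795 ± 0.0243 (SD, n = 2), without overlap, with p = 0.333 in the exact permutation test, where 2 against 2 libraries cannot go lower (adjusted p = 0.545 over 18 comparisons). Other exons went from 0.770 ± 0.00346 to 0.765 ± 0.00285 (SD, n = 2), and the difference between the classes was -0.0339 (exact permutation p = 0.333, adjusted p = 0.545). Exons with only the downstream intron short changed by -0.0330, near the members, and the difference of members from that class was -0.00644 with overlapping libraries (exact permutation p = 0.667). Exons with only the upstream intron short changed by -0.00784, with overlap. The drop was therefore not particular to members. The second siFBL_input library carried much of the difference from other exons, and without it the difference between the classes was -0.0160 and the change of the members was -0.0197. The skipping share of the reads, 4.78 ± 0.481% against 5.00 ± 0.0468% (SD, n = 2), overlapped between the groups.

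As after FUBP1 KD, the change after siFBL followed the longer flanking intron, but with the opposite sign. It was -0.0487 under 200 bases, -0.0365 at 200 to 500 bases and -0.0387 at 500 to 1000 bases. From 1000 bases on it was -0.00335, -0.0109, 0.000998 and finally 0.00831 at 10000 bases or more. Events just outside the limit, with a longer intron of 500 to 600 bases, changed by -0.0579 where those just inside, at 400 to 500 bases, changed by -0.0358. GC content moved with the change here too, from 0.00642 in other exons below 50% GC to -0.0437 at 65% or more, where members changed by -0.0586. Members with 100 or more reads changed by -0.0149 and those with 10 to 20 reads by -0.113.

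Of the 451 members, 170 were higher and 281 lower after siFBL, with a median change of -0.0185 against -0.00337 over all 5208 tested events. In 29 members (6.43%) both siFBL_input libraries were below both controls, where 7.64% of all tested events were, and in 18 (3.99%) both were above, where 6.2% of all tested events were. The test called no member and 0% of all tested events. In the same quasi-binomial fit 6 of 451 members had an unadjusted p under 0.05, all of them lower. Of all 5208 tested events 80 did, 48 lower and 32 higher. Both limma fits called no member either.

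Of the exons named for this comparison, PSAP, F2 and C20orf204 were at 1.00 in both controls. Exon 12 of PSAP, the precursor of the saposins of the lysosome, was at 1.00 in both siCtrl_input libraries and at 0.949 and 0.963 in siFBL_input libraries. Exon 8 of F2, prothrombin, was at 1.00 in both controls and at 0.991 and 0.994 in siFBL_input libraries, with a mean of 2606 reads. Both exons were chosen for lack of overlap, and 7.64% of all tested events lay lower without overlap. These small differences did not pass the test (adjusted p = 0.896 for both, quasi-binomial fit). BPIFB2 exon 10 went from 0.790 and 0.682 to 0.566 and 0.592, and IL32 exon 4 from 0.945 and 0.749 to 0.649 and 0.594. Exon 3 of C20orf204 went from 1.00 in both controls to 0.379 and 0.891. In the opposite direction, exon 16 of SEMA3F, a secreted semaphorin, went from 0.765 and 0.556 to 1.00 in both siFBL_input libraries. Exon 5 of PQBP1, a polyglutamine-binding nuclear protein, went from 0.883 and 0.810 to 1.00 in both. Of all tested events, 6.2% lay higher without overlap. BPIFB2, IL32, C20orf204, SEMA3F and PQBP1 were likewise chosen for lack of overlap. None of them passed the test (adjusted p = 0.896 for each, quasi-binomial fit). C20orf204 and SEMA3F had as few as 20 and 35 reads in a library.

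Across the 3 tables, which have separate controls, the changes of the same exons are set side by side as a description. The siFUBP1 and U3_ASO tables shared 786 member events (77.8% of the first and 39.0% of the second), and across these exons, which are not independent replicates, Pearson's r of the changes was 0.0721. For siFUBP1 and siFBL it was 0.00271 over 326 events, and for U3_ASO and siFBL 0.0160 over 374 events. The control levels of the same exons correlated at 0.949, 0.912 and 0.935. Over the members measured in all 3 tables, the mean level went from 0.753 to 0.788 after siFUBP1 (302 events), from 0.779 to 0.772 after U3_ASO (303 events) and from 0.776 to 0.741 after siFBL (299 events), each without overlap.

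In 19 member events the groups were apart in more than 1 table. That is 2.16% of the 880 member events tested in more than 1 table, where 2.39% of all 13256 such events were apart, so the count is at the background. These were picked after their values were seen, and are given as a description. Exon 4 of USF2, a basic helix-loop-helix transcription factor, is the single member that was higher without overlap in all 3 tables, and is shown for that reason, with 30 intron bases, the exon in capitals and 15 intron bases (chr19:35269773-35270018, hg38, plus strand).
USF2: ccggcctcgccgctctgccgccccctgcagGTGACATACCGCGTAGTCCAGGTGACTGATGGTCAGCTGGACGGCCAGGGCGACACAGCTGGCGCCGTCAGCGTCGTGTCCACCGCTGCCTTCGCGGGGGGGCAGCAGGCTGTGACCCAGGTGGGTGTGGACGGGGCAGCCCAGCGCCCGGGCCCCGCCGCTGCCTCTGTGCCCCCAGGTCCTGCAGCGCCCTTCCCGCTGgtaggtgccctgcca

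This exon has 72.6% GC, and 6% T in the 100 bases before it, where the median member had 22%. Its level was 0.738, 0.814 and 0.779 in siCtrl2 and 0.932, 0.863 and 0.852 in siFUBP1 libraries. It was 0.728, 0.674 and 0.677 in GFP_ASO and 0.801, 0.743 and 0.767 in U3_ASO libraries, and 0.808 and 0.697 in siCtrl_input and 1.00 in both siFBL_input libraries. All 3 comparisons lacked overlap, but none passed the test (adjusted p = 0.837, 0.867 and 0.896, quasi-binomial fits).

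Several exons parted in opposite directions. IL32, BPIFB2 and APOA2, described above, were higher after siFUBP1 and lower after siFBL. Exons of AP1G2, a clathrin adaptor subunit, ATXN2L, an RNA-binding protein, INTS11, the RNA-cleaving subunit of the Integrator complex, and GLTPD2 were higher after siFUBP1 and lower after U3_ASO. Exon 14 of INTS11, with introns of 91 and 71 bases, was at 0.946, 0.927 and 0.976 in siCtrl2 and 1.00 in each siFUBP1 library, and at 0.992, 1.00 and 1.00 in GFP_ASO and 0.968, 0.966 and 0.966 in U3_ASO libraries. FAM136A was the reverse case, lower after siFUBP1 and higher after U3_ASO. Other exons parted in the same direction. An exon of YIPF1 was higher after both siFUBP1 and U3_ASO, and an exon of RPS21 was lower after both siFUBP1 and siFBL. An exon of MMAB was higher after both U3_ASO and siFBL. NPM3, a nucleolar histone chaperone, AXIN2, an inhibitor of Wnt signalling, and the peroxisomal-type ABC transporter ABCD4 were lower after both U3_ASO and siFBL. The NPM3 exon went from 0.983, 0.959 and 0.898 to 0.893, 0.820 and 0.887 after U3_ASO and from 1.00 and 0.964 to 0.772 and 0.675 after siFBL. Opposite directions were seen for 4 further exons of these tables. PPP1R35 and MBD1, a methyl-CpG-binding protein, were higher after U3_ASO and lower after siFBL, and GAMT, an enzyme of creatine synthesis, was lower after U3_ASO and higher after siFBL. HDGF, called as higher after U3_ASO, went from 0.0356 and 0.0212 to 0 in both libraries after siFBL. Apart from HDGF after U3_ASO, none of these passed the test, with adjusted p of 0.488 or more in the quasi-binomial fits.

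By gene group, no list held a called member in any table. Members in transporter genes were higher in 20 of 30 events after siFUBP1, lower in 48 of 66 after U3_ASO and lower in 11 of 16 after siFBL. Their median changes were 0.00562, -0.00694 and -0.0425, beside medians over all tested events of -0.00139, -0.00355 and -0.00337. Of all tested events, 51.9%, 59.2% and 52.1% were lower after siFUBP1, U3_ASO and siFBL. Of all members, 647 of 1010 were higher after siFUBP1, 1291 of 2014 lower after U3_ASO and 281 of 451 lower after siFBL. The median changes of all members were 0.00809, -0.00389 and -0.0185. The groups are parts of the members, so the member values are the nearer background, and no group was tested against them. Members in genes of splicing and RNA-binding factors were lower in 41 of 51 events after U3_ASO, with SF3A3, a subunit of the U2 particle, and PCBP4, a poly(C)-binding protein, lower without overlap (2 of 51 events, where 3.72% of all tested events were), and were split 11 higher and 10 lower after siFUBP1. Members in ribosomal protein genes were lower in 10 of 11 events after siFBL and balanced after U3_ASO, with 15 higher and 17 lower. Those in cytoskeletal genes were lower in 9 of 9 events after siFBL, with FLNA, an actin cross-linking protein, without overlap. In that table F2 and APOA2 of the plasma proteins, ABCD4 of the transporters and RPS21 of the ribosomal proteins were also lower without overlap, where 7.64% of all tested events were. Those in genes of trafficking, translation factors and tRNA synthetases, the proteasome with ubiquitin and chaperones, plasma proteins and the respiratory chain held 4 to 41 events a table, and their median changes ran from -0.0617 (trafficking, siFBL) to 0.0128 (trafficking, siFUBP1).

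Members that are mostly skipped gave overlapping libraries in 2 of the 3 most-read cases, HDGF being the other. The exon of NOP56, a core protein of the box C/D snoRNA particle, had a mean of 2509 reads in the U3_ASO table and levels of 0.0213, 0.0187 and 0.0162 in GFP_ASO and 0.0260, 0.0204 and 0.0184 in U3_ASO libraries. The alternative exon of RPS27, a ribosomal protein of the small subunit, had levels of 0.0318, 0.0140 and 0.0190 in GFP_ASO and 0.0289, 0.0305 and 0.0322 in U3_ASO libraries. Both sets of libraries overlapped (adjusted p = 0.867 for both, quasi-binomial fit).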

How the data were processed

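The processed data were 3 tables of cassette exons from rMATS (junction reads only), with 6 + 6 + 4 libraries. Per the labels and the study's methods, the authors trimmed reads with cutadapt, aligned them to hg38 with HISAT2 and ran rMATS, and the submitters' processing notes also name featureCounts and DESeq2; versions are not given in the sources used here. In the deposited tables, inclusion and skipping junction reads are comma-separated lists of counts per library, beside effective lengths. The authors' p-values, FDR, inclusion levels (6 columns) and differences were not used, nor was a table of FUBP1 RNA immunoprecipitation. List positions carry no replicate number, so libraries are named by position, and the columns name the group.

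Inclusion levels were computed from the counts and effective lengths. Per table, a quasi-binomial model of inclusion against skipping reads on group was fitted to all events with a mean of at least 10 reads, with the dispersion moderated by limma 3.58.1 in R 4.3.3, and p-values were adjusted by Benjamini-Hochberg over all tested events (called under 0.1, the study's threshold). The moderated dispersion came wholly from the trend across events, so an event's own spread did not enter. Library means were compared by exact permutation tests. Sequences and features were read from hg38 with GENCODE v44 (pyfaidx 0.9.0.4, Python 3.11.15). Named exons were the called members, further members with the smallest p and no overlap up to 8 a table, the 3 with the shortest introns, and the 3 most read among those with a control level under 0.5; USF2, SNHG8 and other exons apart in several tables or lists were chosen after their values were seen. The members and gene lists were chosen with earlier results of these data known. The fit was also run on simulated counts. All simulated events shared the same extra spread between libraries. The simulation therefore cannot show how the fit treats events with a wider spread of their own. Permutation p-values compare these libraries with one another. Quasi-binomial p-values set a change against the dispersion trend across events, not against the spread of that event's own libraries.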

Additional observations from a re-analysis of the deposited data

How the results depend on the processing

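Of 25 alternative values of the mean inclusion level of members and 37 of the difference from other exons, 25 and 37 kept direction and separation. Many of these settings left out a single library, which can hardly undo a separation already present. For those settings only the direction and size are informative. The difference from other exons was 0.0342 and 0.0278 after siFUBP1 with intron limits of 300 and 1000 bases, 0.0243 with at least 20 reads, 0.0164 within GC bins and 0.0308 within bins of level and reads. After U3_ASO it was -0.00702 within GC bins and -0.00219 with a limit of 1000 bases, and after siFBL -0.0226 within GC bins and -0.0170 with at least 20 reads. Leaving out each library gave -0.00600 to -0.00355 (U3_ASO) and -0.0449 to -0.0160 (siFBL).

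Calls moved more. The siFUBP1 call went to 0 with limma on log2 odds with and without a variance trend and with no filter, and to 0 to 1 without single libraries. The 6 U3_ASO calls went to 0 under both limma fits, which called 0 of all events, to 3 with an event's own dispersion (added after seeing the data, as were the GC and level bins), and to 3 to 6 without single libraries. Over all events the siFUBP1 calls were 8 and 2 under limma in place of 25. The cause was not tested. The siFBL skipping share rose by 1.82 points without the 20 most-read members and ranged from -0.110 to 0.566 without single libraries, so its sign depends on siCtrl_input 2. LMF2 exon 9 after U3_ASO went from -0.00319 to 0.00174 without U3_ASO library 1. Of 359 alternative values for named exons, 325 kept their side of the threshold and 33 lost a call. No paired analysis was possible because the columns carry no replicate numbers. Depth limits single exons: at 10 to 20 reads per library a change of 0.1 is 1 or 2 reads.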
